A study of Homo sapiens with 40 samples.

Results

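Gene expression after 2 drugs was compared directly in wild-type (WT) HEK293A cells: topotecan (Tpc), which traps topoisomerase 1 (TOP1) on DNA, and OL9-119, an inhibitor of tyrosyl-DNA phosphodiesterase 1 (TDP1), the enzyme that removes trapped TOP1 from DNA ends. The comparison holds every library of these 2 groups, 8 of the 40 libraries of the series: 4 from WT cells given 100 nM Tpc and 4 from WT cells given 5 µM OL9-119, each compound at a single concentration. Treatment lasted 5 to 5.5 h, and both groups carried 0.1% DMSO, the solvent, as did 4 WT DMSO libraries that serve here as the solvent control. HEK293A is an adherent line derived from human embryonic kidney. The same pair of treatments was also given to PARP1-knockout (PARP1-KO) HEK293A cells, a single clone made with CRISPR/Cas9 and treated with 50 nM rather than 100 nM Tpc, again with 4 libraries a group. The sample titles and the study call these cells knockout, while their genotype label reads PARP1 knockdown. Poly(A)+ RNA was sequenced, and the 4 libraries of a group are called biological replicates in the labels and technical ones in the study's methods, so the p-values below measure only the spread between these libraries.

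TOP1 cuts a single DNA strand and reseals it, which relaxes the supercoils that build up ahead of replication forks and of RNA polymerase. Tpc blocks the resealing step, so that TOP1 stays covalently bound to the DNA end, and collisions with forks or polymerases turn these complexes into breaks. TDP1 hydrolyses the bond between the TOP1 tyrosine and DNA and works in the nucleus and in mitochondria, where it removes the mitochondrial topoisomerase TOP1MT. Signalling from DNA breaks is known to activate NF-kappa B, a transcription factor held in the cytoplasm by inhibitor proteins of the I-kappa B type, and cell cycle checkpoints. The integrated stress response works otherwise: kinases that sense amino acid shortage, unfolded protein or mitochondrial stress lead to translation of the transcription factor ATF4, which switches on genes of amino acid supply.

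The 8 libraries held 6300822 to 12792031 counts (Tpc) and 8978603 to 14118481 counts (OL9-119). Replicate 2 stood apart in both groups. At an equal depth of 3455043 counts the Tpc libraries showed 16797 to 20203 genes and the OL9-119 libraries 16729 to 20646, with replicate 2 lowest in each, and the calls of named genes that were lost without both of these libraries are given as such beside the gene. All 11 genes chosen as markers of HEK293 cells were detected and none was called. Of 12 markers of other cell types 6 stayed at or below 1 CPM (TMM-normalised counts scaled to an equal library size), PTPRC among them with no count, and none was called. The others passed 1 CPM in some library, and COL1A1 was at 14.7 to 27.0 CPM with Tpc and 18.2 to 31.5 CPM with OL9-119. The HEK293 marker PAX2 was at 0.80 to 2.08 CPM with Tpc and 3.23 to 4.405 CPM with OL9-119, without overlap (adjusted p = 0.360). In bulk RNA, fewer cells of a type and less RNA per cell cannot be told apart. PARP1 itself was at 762 to 805 CPM with Tpc and 763 to 810.1 CPM with OL9-119, and at 33.2 to 45.4 CPM in the 8 PARP1-KO libraries of the same treatments.

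Of 28922 genes tested, 274 (0.947%) were differentially expressed between Tpc and OL9-119 at an adjusted p under 0.01 (edgeR quasi-likelihood test with Benjamini-Hochberg adjustment). 141 genes (0.488%) were higher with Tpc and 133 (0.46%) were higher with OL9-119, and 43 and 46 of these differed at least 2-fold. An unadjusted p under 0.05 was reached by 3418 genes. The DEGs that were higher with Tpc were led by chemokine genes and other NF-kappa B targets, by immediate early genes and by a set of mitochondrially encoded transcripts. Those that were higher with OL9-119 were led by genes of the ATF4 pathway, genes of mitosis and very long genes. Most DEGs, 89 of the 141 and 90 of the 133, stood on none of the gene lists used below. In 140 of the 141 and 131 of the 133 DEGs no Tpc library overlapped an OL9-119 library. The DEGs were selected on these same libraries, which favours such a separation, so it is no separate support for the calls. Without both replicate 2 libraries 139 genes were called, 72 higher and 67 lower with Tpc. Fold changes below are given as log2 of Tpc over OL9-119, so that a negative value means a higher level with OL9-119. Gene positions are those of a GENCODE annotation of hg38, and values after a gene's name in parentheses are these log2 fold changes, with their standard error (SE) where given.

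Chemokine genes were among the genes that differed most between the drugs. CXCL8 (ENSG00000169429, chromosome 4, 73740519 to 73743716), which encodes the neutrophil attractant interleukin-8, was at 294, 440.3, 348 and 335 CPM in the 4 Tpc libraries, at 18.2, 20.8, 16.3 and 16.5 CPM in the 4 OL9-119 libraries and at 15.4, 23.3, 10.9 and 11.4 CPM in the 4 DMSO libraries. The OL9-119 values thus lay inside the DMSO range, while every Tpc library was more than 10-fold above both. The log2 fold change was 4.30 ± 0.19 SE (adjusted p = 1.45e-25). CCL20 (ENSG00000115009, chromosome 2, 227805739 to 227817564), a ligand that draws lymphocytes and dendritic cells, was at 64.9, 102.1, 66.2 and 58.7 CPM with Tpc against 3.37, 4.08, 4.45 and 2.97 CPM with OL9-119 (4.30 ± 0.29 SE, adjusted p = 1.03e-17). CXCL1, a second neutrophil attractant, was scarcer and stood at 10.1, 21.8, 11.3 and 11.9 CPM against 0.808, 0.942, 0.636 and 0.615 CPM (4.17 ± 0.55 SE, adjusted p = 2.65e-07), with replicate 2 far above the other Tpc libraries. CXCL10, a ligand for activated T cells, was at 11.2, 8.80, 8.82 and 8.51 CPM with Tpc and at most 1.21 CPM with OL9-119 (3.97 ± 0.82 SE, adjusted p = 0.00162), a call that was lost without both replicate 2 libraries. CCL4, which was found after its values were seen and has near-identical copies among which counting could split reads, had no count in the 4 OL9-119 libraries and 0.385, 3.64, 0.928 and 0.774 CPM with Tpc (adjusted p = 0.00619). Tpc replicate 2 held 41 counts of it and the other Tpc libraries 5 or 6 each, and without both replicate 2 libraries it was not called (adjusted p = 0.119). Of the 12 listed NF-kappa B chemokines 4 were called higher with Tpc and none lower, with a median log2 fold change of 2.30 over the 12 against 0 over all genes tested. In the 12 chemokine genes the median was 2.71 for Tpc over DMSO and 0.25 for OL9-119 over DMSO, comparisons that share the DMSO libraries.

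Letters of the NF-kappa B binding site stood close to the RefSeq transcription start of these genes. The motif GGNNNTTCC was searched on both strands in the 250 bases before that start (GRCh38.p14), where it occurred in 17.1% of 27305 genes and in 19.1% of those tested here. The RefSeq start can differ from the GENCODE start of a gene. The matches printed here for CCL20 and further below for CHAC1 and PLK1 therefore lie inside the GENCODE spans given for these genes. All 9 of the listed chemokine genes with a sequence held it, as did 6 of 13 NF-kappa B subunit and feedback genes, 8 of 16 listed cytokine, receptor and survival genes, 33% of the genes called higher with Tpc and 21% of those called lower. Outside the NF-kappa B lists it was found in 14 of 35 G1/S and replication genes, 11 of 37 G2 and mitosis genes and 3 of 12 ATF4 pathway factor genes. The motif is not its own reverse complement, but some matches hold it on both strands, as in the stretches of CXCL8, CXCL1 and NFKBIA below. In those of CCL20 and TNFAIP3 the motif reads on the opposite strand alone. A match describes letters and not a bound site. The NF-kappa B lists were made up of genes already tied to NF-kappa B, so their matches are no separate support. The stretches below surround the match (capitals) in 5 genes called higher with Tpc, each read 5′ to 3′ along the gene's own strand: CXCL8 at chr4:73740448-73740516 and CXCL1 at chr4:73869285-73869353 (plus strand), CCL20 at chr2:227813733-227813801 (plus strand), TNFAIP3 at chr6:137867174-137867242 (plus strand) and NFKBIA at chr14:35404792-35404860 (minus strand).
CXCL8: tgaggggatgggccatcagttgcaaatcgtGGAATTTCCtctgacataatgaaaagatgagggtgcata
CXCL1: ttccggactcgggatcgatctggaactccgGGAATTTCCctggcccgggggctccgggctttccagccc
CCL20: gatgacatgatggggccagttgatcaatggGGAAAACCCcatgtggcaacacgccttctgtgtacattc
TNFAIP3: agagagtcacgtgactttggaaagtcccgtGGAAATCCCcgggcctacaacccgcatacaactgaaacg
NFKBIA: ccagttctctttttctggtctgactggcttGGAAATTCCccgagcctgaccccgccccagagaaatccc

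Of the genes that restrain NF-kappa B, TNFAIP3 and NFKBIA were called higher with Tpc. TNFAIP3 (ENSG00000118503, chromosome 6, 137867214 to 137883314) encodes A20, a ubiquitin-editing enzyme that shuts the pathway off, and was at 166, 128.3, 159 and 181 CPM with Tpc against 19.7, 21.0, 20.3 and 21.0 CPM with OL9-119 and 13.01, 12.4, 4.08 and 15.2 CPM with DMSO. Its log2 fold change was 2.95 ± 0.19 SE (adjusted p = 3.65e-18), and its exons overlap those of WAKMAR2 on the other strand. NFKBIA, the I-kappa B alpha inhibitor, was at 189, 176, 158 and 155 CPM with Tpc and 69.7, 80.0, 70.2 and 73.6 CPM with OL9-119 (1.21 ± 0.13 SE, adjusted p = 4.56e-10). The subunit genes RELB (1.47), NFKB2 (1.17) and NFKB1 (0.76) were also called higher with Tpc, so that 5 of the 15 subunit and feedback genes passed, none of them in the other direction. OL9-119 did not leave all of these genes at the DMSO level: over DMSO, where 1.15% of all genes were called, TNFAIP3 rose by 0.87 (adjusted p = 0.00393), RELB by 0.80 (adjusted p = 0.00646) and NFKBIA by 0.75 (adjusted p = 9.57e-05). For Tpc over DMSO, where 0.985% of all genes were called, the same 3 genes rose by 3.82, 2.27 and 1.96.

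Among 18 NF-kappa B cytokine, receptor and survival genes tested, 5 were called higher with Tpc and none lower, and 8 passed in a fit blocked by replicate number. CD69, a surface receptor of activated lymphocytes, was at 10.3, 15.4, 13.5 and 11.99 CPM with Tpc against 0.673, 0.837, 1.91 and 1.23 CPM with OL9-119 (3.47 ± 0.59 SE, adjusted p = 8.85e-05). TNFRSF9, the receptor 4-1BB, was at 56.1, 80.4, 66.1 and 64.9 CPM against 20.7, 11.6, 23.6 and 17.7 CPM (1.86 ± 0.19 SE, adjusted p = 1.28e-10). In both genes the lowest Tpc library was well above the highest OL9-119 library. CD83 (1.24), the apoptosis inhibitor BIRC3 (1.09) and IER3 (0.99) completed the called members, BIRC3 losing its call without both replicate 2 libraries. PTX3, a secreted pattern recognition protein that was on none of the lists, stood at 49.9, 62.6, 57.1 and 50.5 CPM against 10.4, 5.96, 12.2 and 7.38 CPM (2.61 ± 0.22 SE, adjusted p = 3.43e-13).

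**Figure D1:**
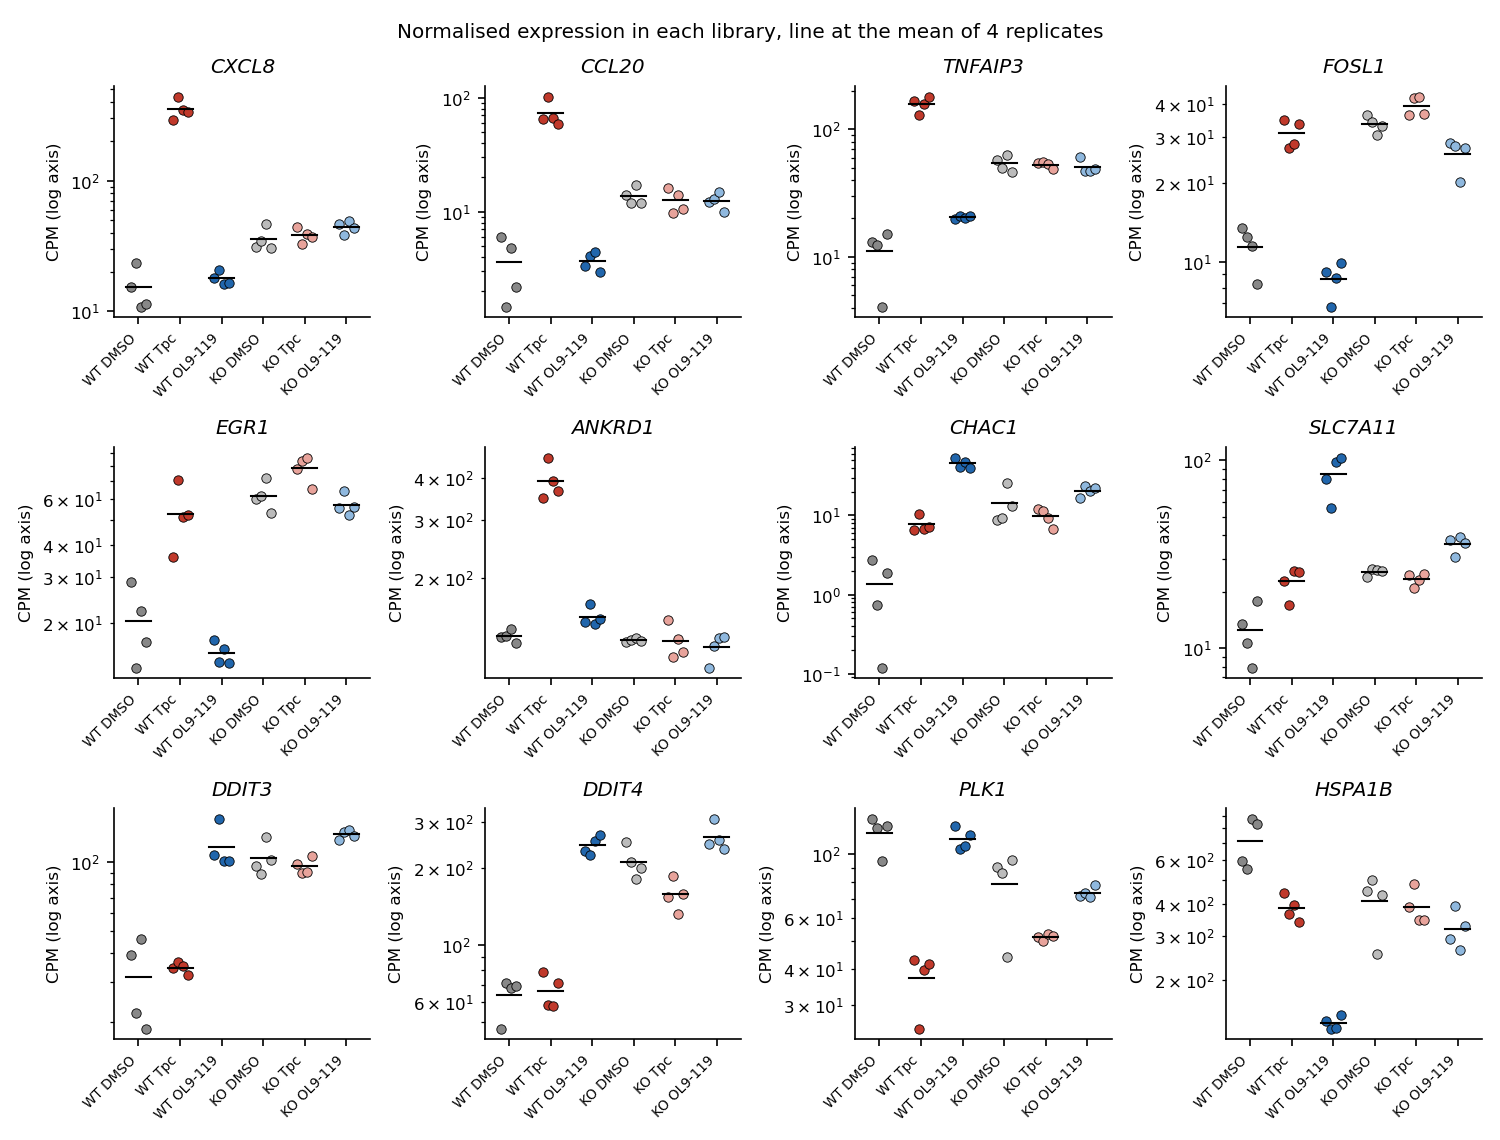
CPM of 12 genes (log axis) in each of the 4 WT and 4 PARP1-KO libraries given DMSO, Tpc or OL9-119, with a line at the mean. CXCL8, CCL20, TNFAIP3 and ANKRD1 are highest in the WT Tpc libraries, CHAC1, SLC7A11, DDIT3 and DDIT4 are higher in WT with OL9-119 than with Tpc, PLK1 is low in WT with Tpc, and HSPA1B is lowest in WT with OL9-119.

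Immediate early genes answer growth factor and stress signals within minutes, and some of these were higher with Tpc as well. FOSL1, an AP-1 subunit, was at 34.8, 27.2, 28.2 and 33.5 CPM with Tpc, 9.22, 6.80, 8.69 and 9.94 CPM with OL9-119 and 13.5, 12.4, 11.5 and 8.30 CPM with DMSO, with a log2 fold change of 1.83 ± 0.25 SE (adjusted p = 3.53e-07). EGR1, a zinc finger factor induced by ERK signalling, was at 35.8, 70.9, 51.1 and 51.8 CPM with Tpc and 17.2, 14.2, 15.9 and 14.04 CPM with OL9-119 (1.77 ± 0.18 SE, adjusted p = 2.36e-10). Both genes were thus separated from OL9-119 in all 4 libraries, and the OL9-119 values lay inside or under the DMSO range. JUN, another AP-1 subunit, showed a graded order instead, with 485, 442, 497 and 499 CPM with Tpc, 298, 286, 327 and 328 CPM with OL9-119 and 166, 164, 218 and 212 CPM with DMSO (0.63 ± 0.12 SE, adjusted p = 7.26e-04 for Tpc over OL9-119). Of 23 genes of this list 6 were called higher with Tpc and none lower, with a median of 0.46, and 4 were called without both replicate 2 libraries. Over DMSO the median of these 23 genes was 0.85 with Tpc and 0.51 with OL9-119. Of them 10 and 5 were called higher over DMSO (0.629% and 0.488% of all genes) and none lower. From the transforming growth factor beta and YAP list the YAP targets ANKRD1 (1.36 ± 0.12 SE, adjusted p = 4.24e-12), AMOTL2 (1.12), CCN1 (1.09) and CCN2 (0.78) were higher with Tpc. ID1 (-0.94), TGIF1 (-0.92) and ID2 (-0.63), genes of the transforming growth factor beta and BMP side of that list, were lower. Without both replicate 2 libraries CCN2 (0.59, adjusted p = 0.258) and TGIF1 (-0.59, adjusted p = 0.161) were not called. In CPM, ANKRD1 was at 348, 461, 391 and 366 CPM with Tpc, 147, 167, 146 and 151 CPM with OL9-119 and 133, 134, 140.4 and 127.8 CPM with DMSO.

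Genes of the ATF4 pathway were among those higher with OL9-119. CHAC1 (ENSG00000128965, chromosome 15, 40952962 to 40956512), which degrades glutathione, was at 6.62, 10.4, 6.65 and 7.09 CPM with Tpc and at 53.8, 41.4, 47.5 and 39.6 CPM with OL9-119, against 2.7005, 0.738, 0.120 and 1.88 CPM with DMSO. All Tpc libraries lay above all DMSO libraries and all OL9-119 libraries lay far above both, and the log2 fold change of Tpc over OL9-119 was -2.56 ± 0.37 SE (adjusted p = 3.25e-06). SLC7A11, the cystine transporter, was at 23.0, 16.97, 25.7 and 25.4 CPM with Tpc, 80.0, 55.9, 97.7 and 103.7 CPM with OL9-119 and 13.5, 10.7, 7.91 and 17.8 CPM with DMSO (-1.89 ± 0.21 SE, adjusted p = 2.82e-09). DDIT3, which encodes the stress factor CHOP, was at 34.6, 36.7, 35.3 and 32.1 CPM with Tpc, 108, 155, 101.4 and 101.01 CPM with OL9-119 and 39.2, 21.9, 46.0 and 18.8 CPM with DMSO (-1.74 ± 0.18 SE, adjusted p = 3.94e-10). For DDIT3 the Tpc values fell inside the DMSO range, and its exons overlap those of MARS1 and MBD6 on the other strand, so part of its reads is uncertain. DDIT4, an inhibitor of mTORC1, was at 78.6, 58.6, 57.7 and 71.0 CPM with Tpc and 231, 223, 254 and 267 CPM with OL9-119 (-1.87 ± 0.15 SE, adjusted p = 8.79e-15). TRIB3, a pseudokinase that feeds back on ATF4, was at 51.8, 48.5, 47.5 and 44.6 CPM with Tpc and 147, 158, 128.4 and 123.8 CPM with OL9-119 (-1.53 ± 0.14 SE, adjusted p = 1.91e-12).

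Of 14 transcription factor and feedback genes of the ATF4 pathway 8 were called lower with Tpc than with OL9-119 and 2 higher, with a median of -0.98. Without both replicate 2 libraries 5 were called lower. The 2 genes called higher were ATF3 and PPP1R15A. ATF3, an ATF family repressor that is also a gene of DNA damage, was at 344, 373, 365 and 349 CPM with Tpc, 195, 237, 188 and 200.5 CPM with OL9-119 and 85.8, 112, 75.8 and 89.2 CPM with DMSO (0.80 ± 0.11 SE, adjusted p = 2.65e-07). PPP1R15A, which brings phosphatase to the translation factor eIF2, was at 407, 437, 353 and 374 CPM, 239, 272, 225 and 229 CPM and 142, 120.4, 189.6 and 118 CPM in the same order (0.71 ± 0.12 SE, adjusted p = 5.13e-05). Both genes rose over DMSO with either compound, by 1.98 and 1.18 for ATF3 and by 1.46 and 0.76 for PPP1R15A (Tpc and OL9-119 respectively). Of 21 stress effector genes 6 were lower with Tpc, among them CTH (-1.51), which makes cysteine, the hormone genes GDF15 (-1.67) and STC2 (-1.05), and VEGFA (-0.77). CTH was not called without both replicate 2 libraries (adjusted p = 0.0126). TXNIP, which binds thioredoxin and slows glucose uptake, was the exception at 0.94: it stood at 119.8, 109.6, 109 and 98.1 CPM with Tpc, 57.7, 49.2, 63.0 and 57.8 CPM with OL9-119 and 128.3, 107, 108 and 110.1 CPM with DMSO.

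Amino acid supply showed the same direction at smaller size. Of 14 amino acid and one-carbon synthesis genes 4 were called lower with Tpc and none higher. PSAT1, an enzyme of serine synthesis, was at 99.2, 109.7, 98.9 and 102.9 CPM with Tpc, 212, 202, 216 and 195 CPM with OL9-119 and 101.3, 92.6, 100.2 and 92.2 CPM with DMSO (-1.01 ± 0.10 SE, adjusted p = 2.17e-10), and the Tpc and DMSO values overlapped. PHGDH (-0.54) and the mitochondrial folate enzyme MTHFD2 (-0.51) passed with smaller differences. Without both replicate 2 libraries 2 of the 14 were called, and PHGDH was not (adjusted p = 0.0668). Of 20 cytosolic aminoacyl-tRNA synthetases CARS1 (-0.68), AARS1 (-0.63) and GARS1 (-0.47) were called lower with Tpc, of which AARS1 remained without both replicate 2 libraries, while the median of the 20 was -0.17. Of 13 amino acid transporters SLC7A11 and SLC38A2 (-0.61) were called, and 4 passed in the blocked fit. Among 20 endoplasmic reticulum chaperone genes 1, HERPUD1 (-0.81), was called lower with Tpc and the median was -0.06. HERPUD1 was not called without both replicate 2 libraries (adjusted p = 0.0264).

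The composite site of C/EBP and ATF factors, searched as TGATGNAA on both strands in the same 250-base windows, occurred in 3.19% of 27305 genes and 1.84% of those tested. It was found in 1 of 12 ATF4 pathway factor genes with a sequence, 2 of 16 stress effectors, 2 of 16 synthetases, 4 of 9 amino acid synthesis genes and none of 11 amino acid transporters. The ATF4 lists were likewise made up of genes already tied to ATF4, so matches in them are no separate support. Of the genes called lower with Tpc 3.81% held it, and of those called higher 1.94%. Matches are shown for CHAC1 and AARS1, both called higher with OL9-119, and for ATF3, called in the other direction: CHAC1 at chr15:40953232-40953299 (plus strand), AARS1 at chr16:70289656-70289723 (minus strand) and ATF3 at chr1:212565186-212565253 (plus strand). In CHAC1 and AARS1 the motif reads on the opposite strand.
CHAC1: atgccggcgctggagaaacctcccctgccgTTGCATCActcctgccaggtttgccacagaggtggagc
AARS1: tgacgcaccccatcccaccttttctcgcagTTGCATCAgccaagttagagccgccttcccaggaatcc
ATF3: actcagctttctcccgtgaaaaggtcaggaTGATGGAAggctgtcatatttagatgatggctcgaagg

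Genes of G2 and mitosis were among those lower with Tpc than with OL9-119. PLK1 (ENSG00000166851, chromosome 16, 23677656 to 23690367), the kinase that drives mitotic entry, was at 43.1, 24.9, 39.6 and 41.8 CPM with Tpc, 125.1, 104.1, 107 and 116.3 CPM with OL9-119 and 133, 123.2, 94.6 and 124.9 CPM with DMSO (-1.60 ± 0.17 SE, adjusted p = 6.88e-10). The OL9-119 libraries lay inside the DMSO range and the Tpc libraries lay far under it, and exons of ERN2 lie on the opposite strand of PLK1. PSRC1 (-1.42), HMMR (-1.26), a protein of the spindle, and KIF20A (-1.24), a kinesin of cytokinesis whose exons overlap those of BRD8, followed. TOP2A, the topoisomerase that untangles chromosomes in mitosis, was at 649, 565, 727 and 727 CPM with Tpc and 1104, 1081, 1339 and 1328 CPM with OL9-119 (-0.86 ± 0.11 SE, adjusted p = 1.05e-07). Of the 43 genes of this list 14 were called lower with Tpc and none higher, all 43 had a negative log2 fold change against 49.3% of the genes with at least 20 counts, and the median was -0.51. Without both replicate 2 libraries 13 were called. For Tpc over DMSO 25 of the 43 were called lower (0.356% of all genes), and for OL9-119 over DMSO 1 was (0.667% of all genes).

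The cell cycle genes homology region, TTTGAA on either strand, occurred in 13.6% of all 250-base windows and 9.63% of those of genes tested. It was found in 19 of 37 G2 and mitosis genes with a sequence, 1 of 35 G1/S genes, 20% of the genes called lower with Tpc and 8.74% of those called higher. It is shown for 3 genes that were called lower: PLK1 at chr16:23678830-23678888 (plus strand), CDC20 at chr1:43358886-43358951 (plus strand) and CDCA8 at chr1:37692463-37692515 (plus strand), the last not called without both replicate 2 libraries (adjusted p = 0.0475).
PLK1: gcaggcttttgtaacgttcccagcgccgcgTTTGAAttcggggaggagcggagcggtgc
CDC20: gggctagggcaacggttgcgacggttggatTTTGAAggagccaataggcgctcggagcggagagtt
CDCA8: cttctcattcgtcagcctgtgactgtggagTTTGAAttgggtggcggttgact

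Some genes of S phase entry differed the other way and by less. CDC25A, a phosphatase that activates cyclin-dependent kinases, was at 114.2, 112, 124.7 and 107 CPM with Tpc and 74.4, 54.3, 67.0 and 73.0 CPM with OL9-119 (0.77 ± 0.12 SE, adjusted p = 3.39e-05). FEN1, the flap endonuclease of lagging strand synthesis, was at 231, 301, 246 and 244 CPM with Tpc, 168, 174, 146 and 143 CPM with OL9-119 and 261, 209, 291 and 197 CPM with DMSO (0.70 ± 0.12 SE, adjusted p = 5.25e-05). The sliding clamp gene PCNA (0.66), the origin licensing gene CDC6 (0.61) and MCM4 (0.54) were also called, 5 of 40 in all with a median of 0.26, and MCM4 was not called without both replicate 2 libraries (adjusted p = 0.0104). Against DMSO these genes did not all move with the same drug: FEN1 fell by 0.60 with OL9-119 over DMSO (adjusted p = 5.67e-04) and PCNA by 0.53 (adjusted p = 0.00189), whereas CDC25A rose by 0.58 with Tpc over DMSO (adjusted p = 0.00278). Of 25 p53 target genes GADD45A (0.89) and BTG2 (0.47) were higher with Tpc, and GDF15 and SESN2 (-0.97), which are also on the ATF4 lists, were lower. BTG2 was not called without both replicate 2 libraries (adjusted p = 0.014). Of 30 replication-dependent histone genes 1, H2AC6 (-1.85), was called, and its call was lost without both replicate 2 libraries. HEK293 lines carry the adenovirus E1 genes, whose products bind p53.

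Heat shock genes were among those lower with OL9-119. HSPA8, the constitutive Hsc70 chaperone, was at 1098, 1317, 945 and 938 CPM with Tpc, 422, 503, 421 and 404 CPM with OL9-119 and 1473, 1608, 1599.9 and 1390.1 CPM with DMSO (1.30 ± 0.12 SE, adjusted p = 2.35e-11). HSPA1B, an inducible Hsp70 gene nearly identical to HSPA1A, so that counting could split reads between them, was at 442, 367, 399 and 341 CPM with Tpc, 138, 129, 129.8 and 146 CPM with OL9-119 and 594, 550.4, 876 and 837 CPM with DMSO (1.51 ± 0.15 SE, adjusted p = 8.02e-11). For both genes Tpc lay between OL9-119 and DMSO, with no overlap among the 3 groups. DNAJA1, a co-chaperone of Hsp70, was at 391.5, 466, 385 and 388 CPM with Tpc, 200.05, 217, 220.1 and 230.4 CPM with OL9-119 and 448, 434, 368 and 418 CPM with DMSO (0.91 ± 0.10 SE, adjusted p = 3.94e-09). CHORDC1 (0.62), DNAJB1 (0.57) and HSPH1 (0.51) passed as well, DNAJB1 losing its call without both replicate 2 libraries (adjusted p = 0.0129). In all, 6 of 20 genes were called higher with Tpc than with OL9-119 (0.488% of all genes) and none lower, with a median of 0.46. Over DMSO 9 of the 20 were called lower with OL9-119 (0.667% of all genes) and 2 with Tpc (0.356% of all genes).

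Some transcripts encoded by mitochondrial DNA were higher with Tpc, and of those called MT-TQ, MT-TP, MT-ND5 and MT-ND6 differed most. MT-ND5 (ENSG00000198786, chromosome M, 12337 to 14148), a subunit of respiratory complex I, was at 2651, 2651, 2738 and 2569.7 CPM with Tpc, 558, 697, 539 and 570.0 CPM with OL9-119 and 2503, 3424, 2553 and 3001 CPM with DMSO. Tpc and DMSO libraries overlapped and all OL9-119 libraries were more than 3-fold lower, and the log2 fold change was 2.17 ± 0.23 SE (adjusted p = 5.94e-10). MT-ND6, the one protein gene of the light strand, was at 265, 329, 454 and 487 CPM with Tpc and 164, 123.99, 153 and 165 CPM with OL9-119 (1.34 ± 0.23 SE, adjusted p = 8.85e-05). On the light strand 2 tRNA genes, MT-TQ and MT-TP, were called and were lower with OL9-119. The scarce MT-TA, with no count with OL9-119 and 0.97 CPM on average with Tpc, was not called (adjusted p = 0.0164). MT-TQ was at 11.2, 11.3, 10.4 and 12.5 CPM with Tpc and 11.3, 9.07, 16.3 and 12.99 CPM with DMSO, and had only 4, 0, 1 and 3 counts in the OL9-119 libraries (5.90 ± 0.86 SE, adjusted p = 3.07e-06). MT-TP was at 13.9, 12.5, 10.5 and 11.2 CPM with Tpc and 0.538, 3.98, 1.27 and 1.23 CPM with OL9-119 (2.81 ± 0.55 SE, adjusted p = 8.12e-04), against 10.4, 10.2, 19.1 and 17.1 CPM with DMSO. In both genes the Tpc values lay inside the DMSO range and no OL9-119 library reached it. The libraries were made from poly(A)+ RNA and mature tRNAs are short, and which transcripts these counts come from was not tested. MT-TQ shares its last bases with MT-TI of the other strand, which was at 0.62 and 0.60 CPM on average with Tpc and OL9-119.

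Of the 13 mitochondrial mRNAs 5 were called higher with Tpc, namely MT-ND5, MT-ND6, MT-ND3 (0.94), MT-CO2 (0.64) and MT-CO1 (0.46). All 13 had a positive log2 fold change, against 50.7% of the genes with at least 20 counts, and the median was 0.46. In the blocked fit 9 of the 13 passed and with DESeq2 4 did, MT-ND3 not among the latter (adjusted p = 0.0176). The call of MT-ND3 was lost in 6 of 21 alternatives. Upstream in the heavy strand the differences were 0.15 for MT-ND1 (adjusted p = 0.729) and 0.13 for MT-ND2 (adjusted p = 0.811), and MT-CYB, the last mRNA of that strand, was at 0.42 (adjusted p = 0.0728). On the light strand the tRNA gene MT-TS1 was at 0.34 (adjusted p = 0.997). The ribosomal RNA MT-RNR1, at the head of the transcript, was at 3192 ± 776 CPM (SD, n = 4) with Tpc and 4889 ± 1194 CPM with OL9-119, opposite in sign to the mRNAs and not called (-0.62, adjusted p = 0.0813). The more abundant ribosomal RNA MT-RNR2 had the sign of the mRNAs, at 17071 ± 2637 CPM with Tpc and 13275 ± 1934 CPM with OL9-119. It was not called either (0.36, adjusted p = 0.122). Mitochondrial mRNAs took 4.21 to 4.73% of counts with Tpc and 3.01 to 3.59% with OL9-119, a difference of 1.22 percentage points (exact permutation test over the 8 libraries, two-sided, p = 0.0286, the smallest that 4 against 4 can give). The test divides the 8 libraries freely and leaves out the pairing by replicate number. With DMSO the share of mitochondrial mRNAs was 4.45 to 5.62%. Of the nuclear genes of the same complexes none of 38 complex I genes and 1 of 34 genes of complexes III, IV and V, ATP5MC3 (0.61), was called, with medians of 0.17 and 0.185.

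Very long genes were among those lower with Tpc. PRKG1, a cGMP-dependent kinase gene that spans 1308 kb, was at 5.39, 3.20, 3.87 and 5.03 CPM with Tpc, 15.5, 12.8, 19.6 and 18.9 CPM with OL9-119 and 10.8, 25.3, 20.5 and 12.7 CPM with DMSO (-1.92 ± 0.30 SE, adjusted p = 1.36e-05). PARD3B, a polarity gene of 1075 kb, was at 8.09, 9.15, 8.82 and 8.51 CPM with Tpc and 19.9, 31.0, 26.1 and 25.8 CPM with OL9-119 (-1.57 ± 0.29 SE, adjusted p = 2.66e-04). Its paralog PARD3 (706 kb) was at 77.7 ± 9.32 CPM with Tpc and 192 ± 10.9 CPM with OL9-119 (SD, n = 4), with a log2 fold change of -1.30 (adjusted p = 1.12e-09). The scaffold gene GRIP1 (722 kb) was at 8.24, 7.91, 4.18 and 7.87 CPM with Tpc and 16.6, 23.0, 17.7 and 22.03 CPM with OL9-119 (-1.48 ± 0.34 SE, adjusted p = 0.00577), a call that was lost without both replicate 2 libraries. With OL9-119, PRKG1 lay inside the DMSO range, while GRIP1, at 16.7, 16.1, 3.60 and 15.7 CPM with DMSO, was above every DMSO library in 3 of the 4 OL9-119 libraries.

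The same direction was seen when all genes with at least 20 counts on average were grouped by genomic span. The median log2 fold change of Tpc over OL9-119 was 0.06 for 2881 genes under 10 kb, 0.07 for 3670 genes of 10 to 30 kb, 0.02 for 4367 genes of 30 to 100 kb, -0.14 for 2212 genes of 100 to 300 kb and -0.45 for 535 genes of 300 kb and over. Of these 535 longest genes 88.2% had a negative value, 38 (7.1%) were called lower and 1 (0.187%), CREB5 (0.77), was called higher, the last not without both replicate 2 libraries (adjusted p = 0.068), against 0.973% called lower, 1.02% called higher and 1.99% called in all among the genes of at least 20 counts. The median of the longest ones was -0.43 and -0.47 in their GC-poor and GC-rich parts and -0.46 and -0.44 in those of shorter and longer exons. When all these genes were split into 5 bins by GC content the bin medians stayed between -0.01 and 0.03, and by exon length they ran from 0.04 to -0.08.

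For the longest genes the median was -0.33 for Tpc over DMSO and 0.17 for OL9-119 over DMSO. For single libraries, the log2 level of each gene was first taken relative to its mean over the WT OL9-119 libraries. The OL9-119 libraries therefore lie around 0 by construction. On this scale the median of genes of 300 kb and over minus that of genes under 100 kb was -0.59 to -0.36 with Tpc. With OL9-119 it was -0.21 to 0.12, with no overlap. The 4 DMSO libraries spread from -0.56 to 0.07 and overlapped both groups. In PARP1-KO cells, at 50 nM Tpc, the median of the longest genes for Tpc over OL9-119 was -0.455.

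The genes of the drug targets were not called. TOP1 was at 293, 306, 317 and 321 CPM with Tpc and 305, 339.8, 305 and 334 CPM with OL9-119 (-0.05 ± 0.10 SE, adjusted p = 0.954), overlapping groups. TDP1 was at 23.4, 12.3, 22.9 and 18.3 CPM with Tpc and 29.8, 47.6, 25.4 and 24.1 CPM with OL9-119 (-0.72 ± 0.25 SE, adjusted p = 0.168), where every OL9-119 library was above every Tpc library and the spread within OL9-119 was wide. Replicate 2 held the lowest Tpc and the highest OL9-119 value. Without both replicate 2 libraries the log2 fold change of TDP1 was -0.29 (adjusted p = 0.914). Of 25 topoisomerase and cleavage complex repair genes 1, TOP2A, was called. Of 36 homologous recombination, Fanconi and checkpoint genes 1, the exonuclease gene EXO1 (0.63), was called, at 147, 159.5, 149 and 137 CPM against 98.1, 82.6, 98.2 and 102.7 CPM, and it was not called without both replicate 2 libraries (adjusted p = 0.0291). MCL1, a short-lived survival protein, was the 1 of 17 BCL2 family genes that passed, at 302, 293, 298 and 288 CPM with Tpc and 176, 154, 195 and 201 CPM with OL9-119 (0.70 ± 0.10 SE, adjusted p = 2.56e-06).

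Several large gene groups held no call in the edgeR test: 78 cytosolic ribosomal protein genes (median 0.07), 75 mitochondrial ribosomal protein genes (0.16), 34 proteasome subunits (0.13), 40 ribosome biogenesis genes (0.16), 16 snoRNA host genes (-0.04) and 24 interferon-stimulated genes (0.15). At an unadjusted p under 0.05 these lists held 0, 10, 5, 11, 5 and 3 genes, and DESeq2 called 1 ribosome biogenesis gene and none in the others. Values near 0 were found for RPS2 (-0.02), MRPL3 (0.06), NPM1 (0.01) and SNHG29 (-0.04), whose signs change with the processing, while the proteasome gene PSMA4 stood at 0.30 (adjusted p = 0.342). In each of 39 spliceosome genes and 25 SR protein and kinase genes 1 member was called higher with Tpc, SF3B5 (0.77) and SRSF3 (0.41), and neither was called without both replicate 2 libraries. At an unadjusted p under 0.05 these lists held 14 and 10 genes, and DESeq2 called 5 spliceosome genes higher and, of the SR group, 4 higher and 1 lower. The calls were likewise lost for TAPBP (0.97) and HLA-E (0.59), 2 of 16 genes of MHC class I presentation. ARRDC4 (0.77), a relative of TXNIP, was higher with Tpc and the glucose transporter gene SLC2A3 (-0.61) lower among 24 glycolysis and glucose-sensing genes, the latter not called without both replicate 2 libraries (adjusted p = 0.0574). Of 23 cholesterol synthesis genes INSIG1 (-0.62) was called, and of 25 NRF2 and glutathione genes SLC7A11 alone.

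In PARP1-KO cells the 2 drugs differed in 11 genes (0.038% of those tested), 1 higher (0.00346%) and 10 lower (0.0346%) with Tpc, against 1724 genes at an unadjusted p under 0.05. This count depended on the fit: a fit with the replicate block called 27 genes, DESeq2 44, the libraries of 1 genotype alone 191 (137 in WT) and the compared libraries alone 284 (505 in WT). With 1 library left out 1 to 7 genes were called, the lowest without Tpc replicate 4. MT-ND5 was the 1 higher gene, at 2138, 1827, 2380.2 and 1854 CPM with Tpc and 672, 438, 659 and 668 CPM with OL9-119 (1.75, adjusted p = 6.13e-06). DDIT4 (-0.74), the nuclear RNA NEAT1 (-0.54) and 8 genes of more than 300 kb, among them PARD3 (-0.86), TTC28 (-1.29), ARID1B (-1.07) and EIF4G3 (-0.79), were lower. No chemokine gene was called there, and CXCL8 was at 44.3, 32.8, 39.3 and 36.9 CPM with Tpc, 46.6, 38.7, 49.1 and 43.3 CPM with OL9-119 and 31.3, 34.5, 46.3 and 30.7 CPM with DMSO in PARP1-KO cells.

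The difference between drugs itself differed between WT and PARP1-KO cells in 27 genes (0.0934%), 19 (0.0657%) with a more positive and 8 (0.0277%) with a more negative value in WT. The 3 genes of smallest p were CXCL8 (WT minus PARP1-KO 4.51 on the log2 scale, adjusted p = 1.06e-20), CCL20 (4.28, adjusted p = 2.37e-12) and TNFAIP3 (2.90, adjusted p = 2.46e-12). DDIT3 (-1.29), TRIB3 (-1.26) and STC2 (-1.15) were among those with the more negative value. For MT-ND5 the difference between genotypes was 0.41 (adjusted p = 1). The genotypes also differed in Tpc concentration and PARP1-KO cells were 1 clone, so genotype, concentration and clone cannot be told apart.

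WT cells were also given both compounds together. CXCL8 was at 453, 359.9, 291 and 326 CPM and CHAC1 at 14.98, 41.0, 34.5 and 31.9 CPM in the 4 libraries of the combination, while MT-ND5 was at 961, 846, 599 and 775 CPM, HSPA8 at 449.7, 547, 409.9 and 360.2 CPM and PLK1 at 45.7, 27.2, 38.5 and 52.99 CPM. For CXCL8 and PLK1 these values lie in or near the range of Tpc alone, and for HSPA8 in or near that of OL9-119 alone.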

How the data were processed

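Poly(A)+ RNA of 40 HEK293A libraries (5 treatments, WT and PARP1-KO, 4 replicates each) was sequenced on an MGIseq 2000. Per the submitters' notes and the study's methods, FastQC 0.11.9 and Picard 2.26.6 were used, and the authors aligned reads with STAR 2.7.8 to hg38 and deposited raw counts per gene. The strand setting of the counts is not given in the sources used here. Genes with at least 10 counts in all were kept (28922 of 58395). They were fitted with the edgeR 4.0.16 quasi-likelihood test (R 4.3.3, TMM, 10 groups, all 40 libraries), with an adjusted p under 0.01 as the threshold. CPM values are TMM-normalised. DESeq2 1.42.0 was an alternative, as were other filters, scalings, subsets of libraries and batch terms. Of 57754 genes the symbol came from a GENCODE 44 annotation of hg38. The fit was first tested on simulated data.

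Same-numbered Tpc and OL9-119 libraries deviated together in each of 4 pairs (r = 0.194 to 0.264), so the replicate number was also fitted as a block. Pairs of different number had a mean r of -0.05. Among these, Tpc replicate 3 with OL9-119 replicate 4 reached 0.239 and Tpc replicate 4 with OL9-119 replicate 3 reached 0.184. Replicates 3 and 4 share a library name prefix in WT, so pairing by number and by prefix are not fully told apart. The members and gene lists were chosen with earlier results of these data known. Named genes were the 12 highest and 12 lowest called genes with at least 50 mean counts and no overlap, TOP1, TDP1 and PARP1, up to 4 called members of each list in each direction (the most abundant where none was called), and the 3 genes of smallest p between genotypes. A gene named by this rule is not reported here. Others were named after their values were seen. The 4 libraries of a group give the error, and counting error is not added.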

Additional observations from a re-analysis of the deposited data

Results flagged for a closer look

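In 22 of 184 groups of 4 libraries tested, 1 library lay far from the other 3 by Dixon's criterion, where chance alone gives about 1 in 20, or 9.2. Of these, 18 were replicate 2. With Tpc, replicate 2 was high for CXCL1 (21.8 CPM against 10.1 to 11.9), CHAC1 (10.4), H2AC6 (6.31), DNAJA1 (466), MT-ND3 (937), MRPL3 (186), PSMA4 (566) and NPM1 (2199), and low for PARP1 (762), CARS1 (71.6) and AMOTL2 (64.3). With OL9-119, replicate 2 was high for DDIT3 (155 CPM, the others at or below 108 CPM), CDC6 (204), NDUFV1 (219.5), PSMA4 (417), NPM1 (2156) and TGIF1 (43.6), and in the share of ribosomal protein counts (7.64% against 5.76 to 5.87%). The other 4 were GRIP1 in Tpc replicate 3 (4.18 CPM), CXCL10 (11.2) and RELB (54.4) in Tpc replicate 1, and BTG2 in OL9-119 replicate 3 (64.0).

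The difference between Tpc and OL9-119 was itself unlike in WT and PARP1-KO cells for 20 named genes (edgeR quasi-likelihood test of the difference, adjusted p under 0.01). On the log2 scale, WT minus PARP1-KO, it was 4.51 for CXCL8, 4.28 for CCL20, 3.86 for CXCL1, 2.90 for TNFAIP3, 2.61 for PTX3, 1.87 for TNFRSF9, 1.505 for RELB and 1.37 for NFKBIA. It was 1.30 for EGR1, 1.30 for ANKRD1, 1.22 for HSPA1B, 1.02 for ARRDC4, 1.01 for ATF3 and 0.85 for JUN. Negative values were found for DDIT3 (-1.29), TRIB3 (-1.26), STC2 (-1.15), DDIT4 (-1.14), KIF20A (-0.999) and PSAT1 (-0.88). Genotype, clone and Tpc concentration cannot be told apart in these values.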

How the results depend on the processing

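The 274 genes of Tpc against OL9-119 in WT became 551 with DESeq2, 137 with the libraries of 1 genotype, 505 with the compared libraries alone, 139 without both replicate 2 libraries (an alternative chosen after seeing the data), 533 at an adjusted p under 0.05, 89 with a log2 fold change of at least 1, and 184 to 218 with 1 library left out. With the replicate number as a block 352 genes were called. Tpc against DMSO (285) gave 517 (DESeq2), 129 (1 genotype), about 1.2e+02 (compared libraries), 445 (length and GC offsets), 571 (adjusted p under 0.05), 109 (log2 fold change of at least 1) and 204 to 425 (1 left out). OL9-119 against DMSO (334) gave 719, 137, 95, 554, 783 and 74 in the same order, 556 without a filter and 187 to 595 (1 left out). In PARP1-KO cells 11 became 44 (DESeq2), 59 (no filter), 191 (1 genotype), 284 (compared libraries), 27 (replicate block), 28 (adjusted p under 0.05), 5 (log2 fold change of at least 1) and 1 to 7 (1 left out). The 27 genes that differed between genotypes became 52 (DESeq2), 43 (no filter), 61 (compared libraries), 43 (adjusted p under 0.05) and 19 to 27 (1 left out). The causes were not tested.

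The median of genes of 300 kb and over minus that of genes under 100 kb was -0.495, and -0.361 for Tpc over DMSO, 0.175 for OL9-119 over DMSO, -0.118 for the longest against the shortest of 5 bins by exon length, and -0.57 to -0.448 with 1 library left out. The mitochondrial mRNA share difference was 1.11 to 1.36 with 1 left out. Genes detected at equal depth differed by -348.5 (exact permutation p = 0.657, without the pairing by replicate number), by -227.2 at 5 or more counts (exact permutation p = 0.0286, likewise), and by -1215 to 379.6 with 1 left out. The sign turned to positive without Tpc replicate 2 (379.6) or OL9-119 replicate 4 (90.25). Of 88 named genes 79 were called, none of these reversed in 21 alternatives, 52 kept their call in all of them, and all 79 kept it under the replicate block. Among genes not called, the sign turned without both replicate 2 libraries for NDUFV1 (0.0326) and RPS2 (0.0148), with the compared libraries alone for NPM1 (-2.73e-04), and with the length and GC offsets for NPM1 (-1.35e-04) and SNHG29 (0.0104). With 1 library left out values on both sides of 0 were found for NDUFV1 (-0.137 to 0.0240), RPS2 (-0.0778 to 0.0580), MRPL3 (-0.00709 to 0.164), NPM1 (-0.0612 to 0.0845) and SNHG29 (-0.0881 to 0.0288). The sign of the list median changed in some alternative for the BCL2 family, snoRNA host genes, topoisomerases and the transforming growth factor beta and YAP list. All 79 called genes kept their sign within each of the 3 library name prefixes. These genes were called on the same libraries, which nearly fixes this outcome, so it is no separate support.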

Other observations

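Of the called genes, 89 of the 141 higher with Tpc and 90 of the 133 lower with Tpc stood on no list. The few given here were chosen after their values were seen. Among genes higher with Tpc, the phosphatase DUSP6 was at 7.03 ± 0.783 CPM with Tpc and 1.96 ± 0.825 CPM with OL9-119 (SD, n = 4, log2 fold change 1.83 ± 0.38 SE, adjusted p = 0.00174), the signalling inhibitor SPRY4 at 12.7 ± 0.979 CPM with Tpc and 4.10 ± 0.898 CPM with OL9-119 (1.63 ± 0.36 SE, adjusted p = 0.00407) and a second phosphatase, DUSP5, at 28.9 ± 5.06 CPM with Tpc and 14.02 ± 2.85 CPM with OL9-119 (1.05 ± 0.21 SE, adjusted p = 0.00101). The small MAF factor MAFF was at 21.9 ± 2.56 CPM with Tpc and 6.73 ± 0.655 CPM with OL9-119 (1.70 ± 0.22 SE, adjusted p = 1.47e-07), and the secreted protease PLAU at 32.6 ± 1.63 CPM with Tpc and 12.9 ± 2.67 CPM with OL9-119 (1.33 ± 0.24 SE, adjusted p = 1.66e-04). Among genes higher with OL9-119, the transferrin receptor TFRC was at 156 ± 21.3 CPM with Tpc and 346 ± 46.7 CPM with OL9-119 (-1.15 ± 0.20 SE, adjusted p = 1.16e-04), and the glucocorticoid-induced TSC22D3 at 47.4 ± 4.49 CPM with Tpc and 115.8 ± 11.1 CPM with OL9-119 (-1.29 ± 0.15 SE, adjusted p = 1.18e-08). PCK2, a mitochondrial enzyme, was at 23.5 ± 1.88 CPM with Tpc and 53.2 ± 10.7 CPM with OL9-119 (-1.17 ± 0.23 SE, adjusted p = 9.91e-04). The mitochondrial DNA helicase TWNK was at 76.7 ± 7.25 CPM with Tpc and 45.2 ± 6.05 CPM with OL9-119 (0.76 ± 0.14 SE, adjusted p = 2.43e-04) and FASTKD5, of mitochondrial RNA processing, at 48.3 ± 7.22 CPM with Tpc and 25.8 ± 4.08 CPM with OL9-119 (0.90 ± 0.19 SE, adjusted p = 0.00307). Without both replicate 2 libraries DUSP6, SPRY4, DUSP5, PCK2 and FASTKD5 were not called (adjusted p = 0.0166, 0.0163, 0.0683, 0.0372 and 0.107).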
